A study of Mus musculus with 2 samples.

Results

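Long non-coding RNAs of the nucleus and genes that carry small nucleolar RNAs (snoRNAs) in their introns were followed through 2 long-read RNA-seq libraries of mouse calf muscle. The set was chosen by gene name and holds 10 annotated genes: Malat1, Neat1, Gas5, Snhg1, Snhg3, Snhg5, Snhg6, Snhg8, Snhg11 and Snhg12. Of these, 9 are among the 15508 annotated genes with reads, and each of the 9 had them in both libraries. The libraries were made from 2 µg of total RNA from gastrocnemius of male B6CASTF1/J mice aged 36 days, the F1 hybrid named in the labels, with no treatment. They form a single group with 2 replicates, which the labels describe as separate animals (male 03 for replicate 1, male 04 for replicate 2) although both share a donor entry. There is therefore no contrast of conditions, and a test between the libraries compares those libraries and has no replicate check.

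Malat1 and Neat1 are abundant nuclear RNAs in many tissues. Malat1 gathers at nuclear speckles, which hold splicing factors, and Neat1 has a short polyadenylated form and a long form that builds paraspeckles. The Snhg genes and Gas5 work differently: their exons are spliced into a long RNA, while the introns release snoRNAs that guide the chemical modification or processing of ribosomal and other RNAs. Box C/D snoRNAs guide methylation and box H/ACA snoRNAs guide pseudouridylation.

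Replicate 1 held 1036455 reads in annotated genes and replicate 2 held 1374068, so that a count of 0 allows up to 2.89 and 2.18 CPM (reads scaled to 1000000 reads in annotated genes), counting error only. The tissue label was met by its markers: 8 of 8 muscle fibre genes had reads, with summed levels of 330126 and 256695 CPM. Of these, Atp2a1 (log2 ratio of replicate 2 over replicate 1, −1.95) and Myh1 (−2.19) were called higher in replicate 1 by the test below. The median log2 ratio of the 8 genes was 0.03. Markers of other cells also differed between the libraries. Nerve and Schwann cell genes (10 of 12 with reads, Nefl and Snap25 at 0 in both) summed to 1485 and 516.7 CPM, and fibroblast and matrix genes (8 of 8) to 3632 and 970.1 CPM, both lower in replicate 2. Endothelial and pericyte genes (9 of 9) summed to 260.5 and 154.3 CPM. Immune and blood genes (6 of 9, with Ptprc, Cd3e and Cd79a at 0) summed to 280.8 and 333.3 CPM. The part of these differences in the results below was not tested.

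The sequences below are those on which the structural results turn, all from the mouse reference (GRCm38, the build of the files). The first 3 are snoRNAs held inside an intron of a host gene, from the GENCODE M21 transcripts, with capitals at the box motifs. Snora24 lies in Snhg8 at chr3:123507937-123508066 on the minus strand and Snora16a in Snhg12 at chr4:132309464-132309600 on the plus strand. They are shown because some reads kept them. Snord50a lies in Snhg5 at chr9:88521529-88521600 on the minus strand and stands for the introns that reads of Snhg5 removed.
Snora24: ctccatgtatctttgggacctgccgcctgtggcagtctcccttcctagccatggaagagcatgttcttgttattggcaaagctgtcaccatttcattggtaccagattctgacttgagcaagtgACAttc
Snora16a: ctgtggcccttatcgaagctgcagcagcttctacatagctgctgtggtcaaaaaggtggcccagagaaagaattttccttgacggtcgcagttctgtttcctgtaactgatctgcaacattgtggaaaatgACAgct
Snord50a: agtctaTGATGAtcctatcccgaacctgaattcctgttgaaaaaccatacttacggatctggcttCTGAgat

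The capitals mark ACA placed 3 bases before the end, or TGATGA in the first 20 bases together with CTGA in the last 12. On the transcript strand, 14 of the 29 snoRNAs inside the hosts held the second pair, 5 held ACA without it and 10 held neither. Over all 1515 annotated snoRNAs, 19.7% held the pair and 18.1% held ACA without it. Snord50a and its neighbour Snord50b (chr9:88521797-88521868) are equal at 71 of 72 bases and differ by C50A, counted from the first base of the snoRNA.

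Neat1 was the most abundant member on the CPM scale. It lies on the minus strand at chr19:5824708-5845478 and is annotated as a lincRNA whose longest transcript has 20771 bases in a single exon. It had 93 reads in replicate 1 (89.7 CPM) and 415 in replicate 2 (302.0 CPM), a mean of 195.9 CPM ± 150.1 (SD, n = 2) and rank 539 of 15508 genes. Malat1, its neighbour on the same strand at chr19:5795690-5802672, had 33 and 44 reads, or 31.8 and 32.0 CPM (31.9 ± 0.129, SD, n = 2). On this scale Neat1 differed widely between the libraries and Malat1 hardly.

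Per 1000 bases of the longest annotated transcript the order changed, in part since Neat1 and Malat1 are long. This divisor was 2556 bases for Gas5, whose leading model has 557, and 581 for Snhg3, whose leading model has 437. The order below holds for this divisor only, and levels per 1000 bases of the leading model were not computed. Each long read was assigned to a single model, so read counts need not grow with transcript length. Dividing by length can therefore place long RNAs too low, and the order is a description only. Snhg8 then led with a mean of 30.3 CPM per 1000 bases, with Snhg3 just below it, followed by Gas5 with 14.8, Snhg6 with 11.7 and Neat1 with 9.43. Snhg5 (7.44) and Malat1 (4.57) came next, with Snhg12 (1.73) and Snhg1 (1.02) last. Over the 2 libraries, 3 pairs of neighbours in this order did not overlap: Snhg3 (29.9 to 30.1) lay above Gas5 (9.44 to 20.2), Snhg5 (4.74 to 10.1) above Malat1 (4.56 to 4.59), and Malat1 above Snhg12 (0.627 to 2.84). The other neighbours did. Snhg8, for example, covered 17.4 to 43.1 CPM per 1000 bases, which takes in Snhg3, and Snhg6, at 11.8 and 11.6, lay inside the range of Gas5.

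Among the hosts, Gas5 (chr1:161034422-161038539, plus strand), a host of box C/D snoRNAs, was the most abundant on the CPM scale. It had 25 and 71 reads, or 24.1 and 51.7 CPM (37.9 ± 19.5, SD, n = 2). Snhg8 (chr3:123507552-123508404, minus strand), the host of Snora24, had 14 and 46 reads, or 13.5 and 33.5 CPM. Both stood higher in replicate 2. Snhg3 (chr4:132348014-132353686, minus strand), the host of Snora73a and Snora73b, had 18 and 24 reads, or 17.4 and 17.5 CPM, nearly equal on this scale.

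Snhg6 (chr1:9941959-9944118, minus strand), the host of Snord87, had 10 and 13 reads, or 9.65 and 9.46 CPM. Snhg5 (chr9:88521050-88522929, minus strand), the host of Snord50a and Snord50b, had 6 and 17 reads, or 5.79 and 12.4 CPM. Snhg1 (chr19:8723475-8726443, plus strand) had 5 and 1 reads, and Snhg12 (chr4:132308623-132311024, plus strand) had 1 and 6. The last pair stood on opposite sides, at depths too low to test. Snhg11 (chr2:158375638-158386145, plus strand), which the annotation types as protein coding, had 0 reads in both libraries. The 8 hosts summed to 79 and 178 reads (76.2 and 129.5 CPM), and all 10 members to 205 and 637 reads (197.8 and 463.6 CPM).

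**Figure D1:**
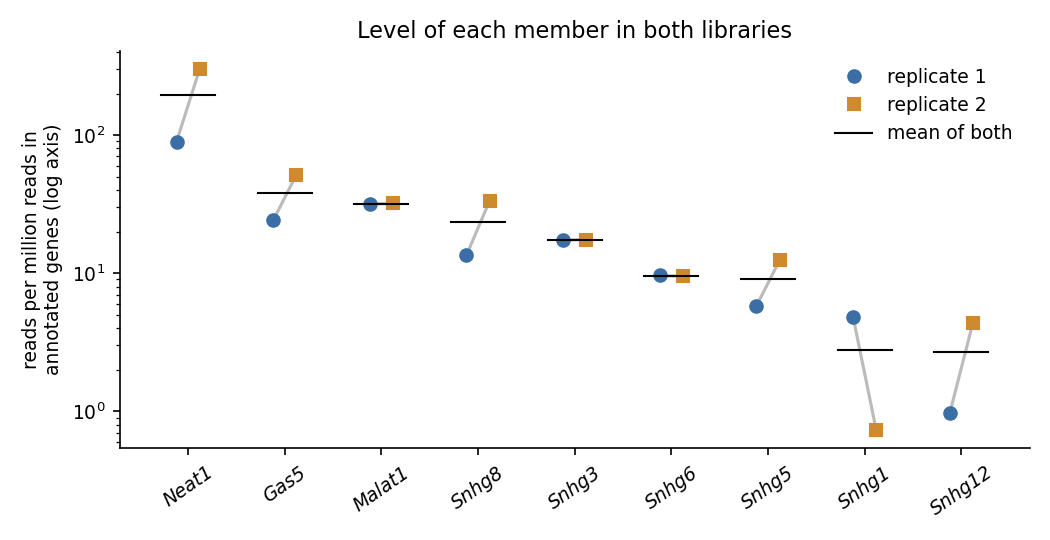
Level of the 9 members with reads in each library, in CPM on a log axis; circles are replicate 1, squares replicate 2 and bars their mean. Neat1 stands at 89.7 and 302.0 CPM, and Malat1, Snhg3 and Snhg6 are nearly equal in both libraries on this scale.

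Between the libraries, Neat1, Gas5 and Snhg8 were called higher in replicate 2, and no member was called higher in replicate 1. The test was a two-sided exact binomial test of the 2 counts given the library totals, over 8339 genes with at least 10 reads in sum, with Benjamini-Hochberg adjustment. Calls needed an adjusted p below 0.05 and a ratio of 2-fold or more. It called 3 of the 7 members tested, all higher in replicate 2, where 5.53% of all tested genes were called in that direction (461 genes), 12.0% in the other (997) and 17.5% in either. The median log2 ratio, replicate 2 over replicate 1, was 1.02 over the 7 members and −0.28 over all tested genes. All 7 lay above that median. With TMM scaling, which moved all ratios up by 0.26, 801 genes passed on the side of replicate 2 and 542 on that of replicate 1, and the count of members called was again 3.

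Neat1 had a log2 ratio of 1.75 (3.35-fold, exact 95% interval 2.68 to 4.26, adjusted p = 2.92e-30, exact binomial test). This call depends on which reads are counted as Neat1. A short annotated RNA, Gm28006 (chr19:5844916-5845037, minus strand, 122 bases), lies inside Neat1 on its strand, 441 to 562 bases from its 5′ end, and had 150 and 52 reads. Its own ratio ran the other way, with a log2 ratio of −1.93 (adjusted p = 1.38e-17, exact binomial test). With it, Gm27505 and Gm27533 (3 and 2 reads each) counted as Neat1, the locus had 249 and 471 reads and a log2 ratio of 0.51 (1.43-fold, 1.22 to 1.67, adjusted p = 5.05e-05, exact binomial test), which is under 2-fold and so was not called. That count was chosen after seeing the data.

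Gas5 had a log2 ratio of 1.08 (2.11-fold, exact interval 1.34 to 3.53, adjusted p = 0.00488, exact binomial test). Snhg8 had 1.27 (2.42-fold, 1.34 to 4.88, adjusted p = 0.0116, exact binomial test). Both calls were lost when the trend of the ratios with transcript length was removed, which left log2 ratios of 0.33 for Gas5 (adjusted p = 0.669, exact binomial test) and 0.45 for Snhg8 (adjusted p = 0.659). The leading models have 557 bases in Gas5 and 448 in Snhg8.

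The other 4 tested members did not pass. Snhg5 had a log2 ratio of 1.02, with an interval of 0.804-fold to 6.62-fold (adjusted p = 0.296, exact binomial test). Malat1 and Snhg3 both had 0.00, with intervals of 0.626-fold to 1.63-fold and 0.523-fold to 1.97-fold. Snhg6 had −0.04, within 0.397-fold to 2.50-fold. With the length trend removed, the log2 ratios were −0.84 for Snhg3, −0.85 for Snhg6, 0.31 for Snhg5 and 0.53 for Malat1, and none of them passed. The leading models of Snhg3 and Snhg6, 437 and 473 bases, are as short as those of Gas5 and Snhg8. These intervals cover counting error only and leave room for changes of a size that these depths could not show.

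**Figure D2:**
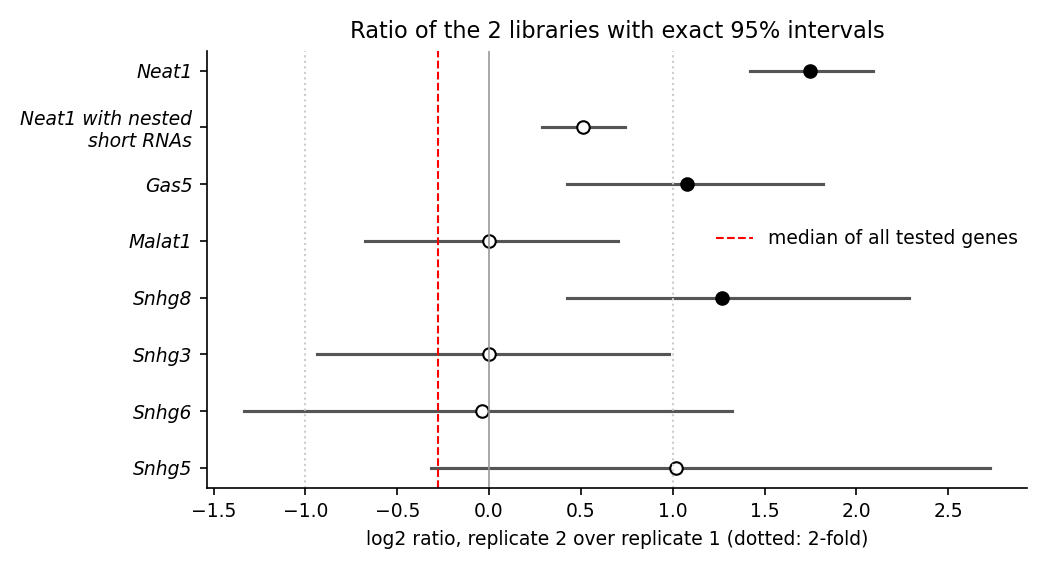
Log2 ratio of replicate 2 over replicate 1 for the 7 tested members and for Neat1 with the short RNAs nested in it; lines are exact 95% intervals from counting error, filled points were called, dotted lines mark 2-fold and the dashed line the median of all tested genes at −0.28. Counting the nested RNAs moves Neat1 from 1.75 to 0.51.

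Splicing divided the set. A read was taken as spliced where its model had 2 or more exons. Of the hosts' reads, 77 of 79 were spliced in replicate 1 (97.5%, Wilson 95% interval 91.2 to 99.3) and 168 of 178 in replicate 2 (94.4%, 90.0 to 96.9). Malat1 had 0 of 33 and 1 of 44 spliced reads, and Neat1 had 1 of 93 (1.08%, 0.190 to 5.84) and 1 of 415 (0.241%, 0.0425 to 1.35). Only 49 of 5235 genes with a spliced annotated transcript and 10 or more reads per library (0.936%) lay under 5% in both, Malat1 and Neat1 among them.

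Every read of Gas5, Snhg1 and Snhg3 was spliced in both libraries. Snhg8 had 14 of 14 and 43 of 46, Snhg6 8 of 10 and 11 of 13, Snhg5 6 of 6 and 14 of 17, and Snhg12 1 of 1 and 4 of 6. Over all genes with a spliced annotated transcript, the share was 94.3% in replicate 1 and 86.5% in replicate 2. Fisher's exact test with Benjamini-Hochberg adjustment called 0 of the 6 members tested, and 0 had an unadjusted p under 0.05, where 18.7% of 5235 genes were called, 18.5% with the higher share in replicate 1 and 0.115% with the higher share in replicate 2. Calls needed an adjusted p under 0.05 and 10 percentage points, and the members' depths limit what could pass.

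**Figure D3:**
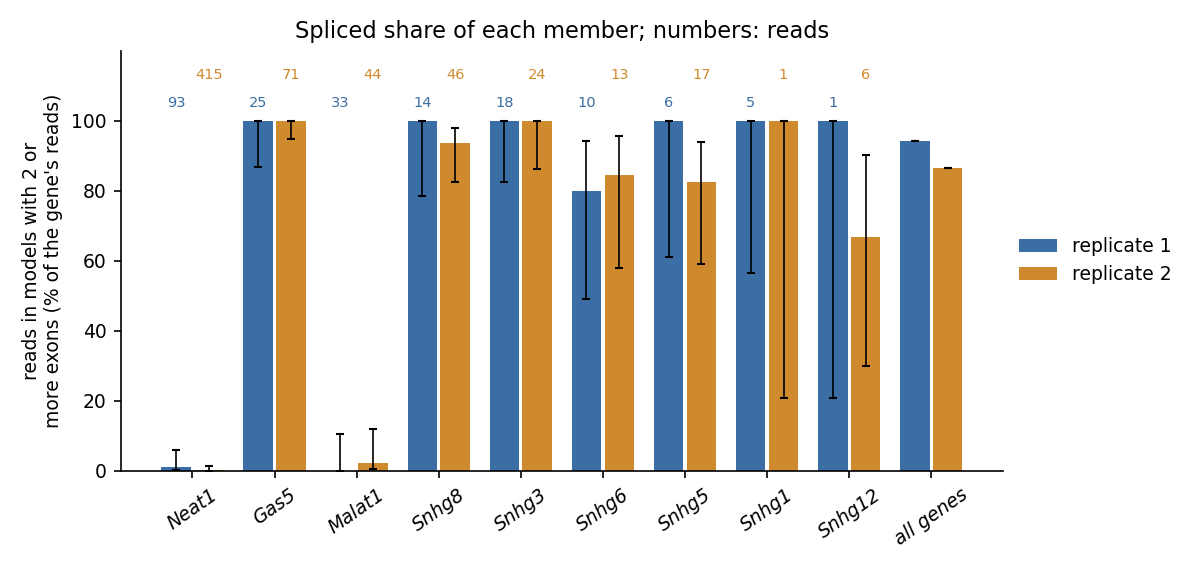
Share of each member's reads in models with 2 or more exons, with Wilson 95% intervals and, above the bars, the reads in each library; the last pair of bars pools all genes with a spliced annotated transcript. Malat1 and Neat1 lie near 0 and the hosts between 66.7% and 100%.

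The single-exon reads of Neat1 and Malat1 were nearly all assigned to the annotated full-length transcripts. These took 92 of 93 and 414 of 415 reads of Neat1 (20771 bases) and 33 of 33 and 43 of 44 reads of Malat1 (6983 bases). The deposited tables give the length of the annotated transcript and not of the read, so how much of the gene each read covered is unknown here. Among 420 annotated single-exon models with at least 10 reads, that of Neat1 was the second longest (rank 2) and that of Malat1 had rank 6.

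The 2 spliced reads of Neat1 ended at the same base. In replicate 1 the model had 2 exons and 2533 bases, and in replicate 2 it had 3 exons and 2590 bases. Both end at position 5842307 of chr19, base 3172 of Neat1 counted from its 5′ end, and remove different introns before it. The sequence around that end (chr19:5842277-5842366, minus strand) is shown because the AATAAA polyadenylation hexamer, in capitals, stops 14 bases before the last base of the models. The models' last 60 bases come first and are followed by 30 bases beyond the end.
Neat1 end: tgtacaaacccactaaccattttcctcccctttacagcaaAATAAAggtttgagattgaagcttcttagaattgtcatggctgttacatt

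AATAAA on the Neat1 strand was found in 1.59% of all 60-base windows of the gene. A match is a description of these letters and no measure of use.

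Reads on the opposite strand were numerous at the nuclear RNAs, few at the host Snhg1 and not found at the other hosts. How the strand of single-exon reads was set is not given in the sources used here, and these shares depend on it. The reads belong to loci that the authors' models class as antisense and are counted here where 50% or more of the model lay inside the gene. Reads assigned to an annotated gene that overlaps a member are not in this count, so a count of 0 covers antisense loci only. Opposite to Neat1 there were 149 and 503 reads. Beside the 93 and 415 reads assigned to Neat1 itself, this is 61.6% (Wilson 55.3 to 67.5) and 54.8% (51.6 to 58.0) of the reads on both strands. With the nested short RNAs, the own strand of Neat1 had 249 and 471 reads, and shares on that count were not computed. Opposite to Malat1 there were 31 and 298 reads, or 48.4% (36.6 to 60.4) and 87.1% (83.2 to 90.3). Snhg1 had 1 and 4, beside 5 and 1 reads of its own. Gas5, Snhg3, Snhg5, Snhg6, Snhg8 and Snhg12 had 0. Over the whole libraries, antisense loci held 25303 reads in replicate 1 and 86704 in replicate 2. The higher counts in replicate 2 are thus not particular to these genes.

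Among 5437 genes with 10 or more reads per library, 41.6% had no opposite-strand read. In 50 (0.920%), opposite-strand reads outnumbered the gene's own in both libraries. Neat1 was among those 50 only without the nested RNAs: with them, its own strand led in replicate 1 (249 against 149 reads). By the mean share, also without nested RNAs, Malat1 ranked 41 and Neat1 ranked 65. How these reads arose was not tested.

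Several opposite-strand models of Neat1 stop just before a run of A on their own strand. The 30 bases after 3 such ends are shown on the plus strand, with the longest A run in capitals, beside the end at Malat1 with most reads, where no such run follows. The ends lie at positions 5841883, 5834931 and 5829772 of chr19 for Neat1 and 5799000 for Malat1, as listed in the models.
Neat1 opposite end, 3595 bases from the 5′ end of Neat1: AAAAAAAAAAAAAAAAAAccaaaaatagcc
Neat1 opposite end, 10547 bases: AAAAAAAAAAAAAAAAAAAAgcacgagatt
Neat1 opposite end, 15706 bases: aaaaggaaagAAAAAAAAAAAAAAgcacaa
Malat1 opposite end, 3672 bases: cattttcacttcatttctattctgcttttg

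A run of 8 A in those 30 bases followed models with 143 of the 149 opposite-strand reads of Neat1 in replicate 1 (96.0%) and 277 of 503 in replicate 2 (55.1%). On that strand 0.820% of all 30-base windows of the gene hold such a run. Some ends without the run were also rich in A. In replicate 2, A made up 24 of the 30 bases after the model with 159 reads. It made up 20 after that with 59 reads and 9 after that with 7 reads. At least 20 A were held by 1.12% of windows. At Malat1, no end had more than 17. For Malat1 it was 0 of 31 and 19 of 298 reads (6.38%), against 1.02% of windows. Of the models' ends, 4 at Neat1 and 2 at Malat1 were the same base in both libraries. A 2-exon opposite-strand model of Neat1 in each library, with 20 and 18 reads, skips the same 59 bases at chr19:5840809-5840867 and stops at the same base, although the models start at different bases (10838 and 8315 bases long). The skipped bases begin with GT and end with AG on the plus strand. They lie in a tandem repeat, in which a stretch of 59 bases recurs exactly at an offset of 58 bases.

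**Figure D4:**
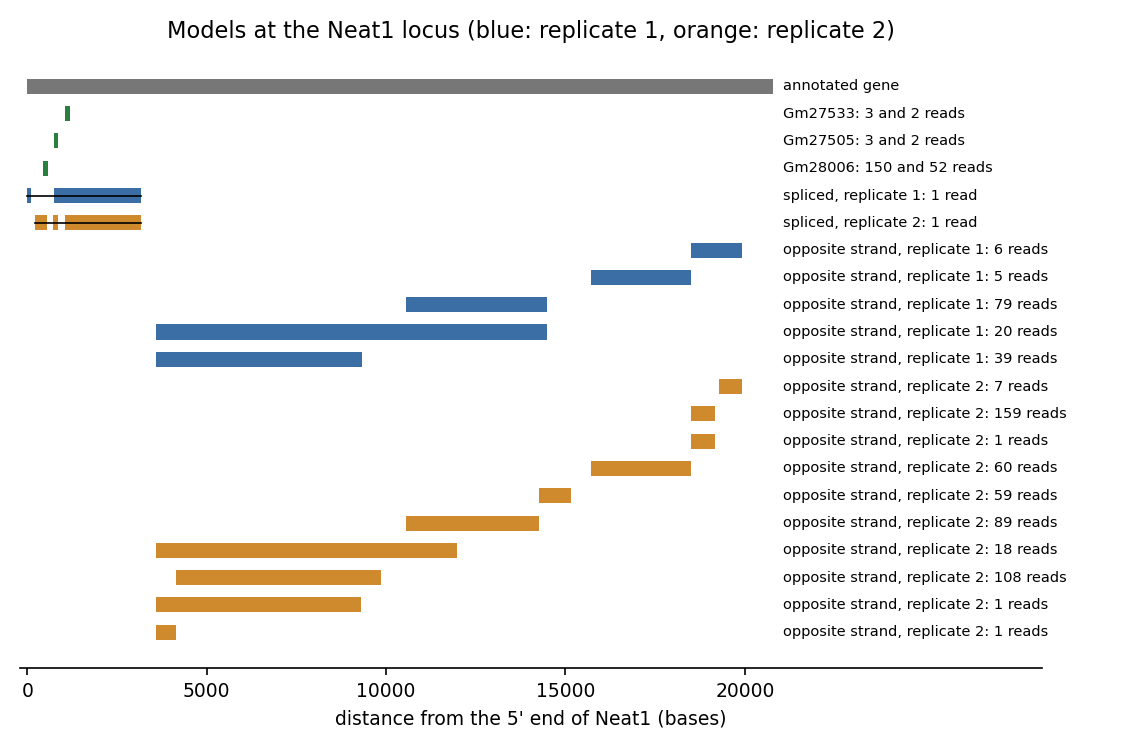
Models at Neat1 by distance in bases from its 5′ end: the annotated gene, the short RNAs nested on its strand, the spliced models and the opposite-strand models, each with its reads (gaps of under 60 bases are not drawn). The spliced models stop at the same base near 3172, and opposite-strand models cover much of the rest of the gene.

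Gas5 had the most exon chains, and also the most reads of the hosts. Of its 16 spliced chains, 4 were seen in both libraries and held 22 of 25 and 61 of 71 reads. In replicate 2, 4 of the 16 (5 reads) were classed as incomplete and lack the 5′ part of longer chains. Snhg5 had 8 spliced chains from only 6 and 14 spliced reads. The leading chain was the annotated Gas5-210 with 11 exons and 557 bases, which took 16 of 25 reads in replicate 1 (64%, Wilson 44.5 to 79.8) and 36 of 71 in replicate 2 (50.7%, 39.3 to 62.0). Gas5-224, with 12 exons, took 3 and 16 reads, and Gas5-209, with 8 exons, took 2 and 8. The order of these chains was the same in both libraries.

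An optional exon of 41 bases, 2702 to 2742 bases from the 5′ end of the gene, sets Gas5-224 apart from Gas5-210. It was present in 3 of 24 reads that span it in replicate 1 (12.5%, Wilson 4.34 to 31.0) and in 18 of 68 in replicate 2 (26.5%, 17.4 to 38.0), and the intervals overlap.

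Unannotated Gas5 models that keep the first exon, each with 1 read, began at position 161035166 of chr1, the second of 2 RefSeq starts of the gene. RefSeq (GRCm38.p6) gave 9 starts for 8 members. The first bases at this Gas5 start and at the Snhg8 start (position 123508336 of chr3, minus strand) are shown because they open with C and at least 4 further pyrimidines, in capitals, the kind of start known from genes whose RNAs are controlled with the translation machinery.
Gas5 start: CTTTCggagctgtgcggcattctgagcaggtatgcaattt
Snhg8 start: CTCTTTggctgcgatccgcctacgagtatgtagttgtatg

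Such an opening, read at the first base on the gene's strand, was held by 2 of the 8 host starts and by 2.51% of 32851 RefSeq starts. It was not found at the listed starts of Snhg1, Snhg3, Snhg5, Snhg11 or Snhg12. The result depends on the start base: unannotated Snhg5 models with 2 and 7 reads begin 9 bases inside the RefSeq start, where the letters do hold such an opening, and others with 2 and 6 reads begin 7 bases inside, where they do not. The unannotated spliced Snhg8 model (1 read) begins 6 bases inside its start, after the run. The leading models are listed from bases upstream of the starts shown. These are 161035067 for Gas5-210 (16 and 36 reads) and 123508404 for Snhg8-201 (14 and 42 reads). Reads of annotated models carry no positions, so where they begin is unknown here.

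The smaller hosts mostly used a single chain. Snhg3-204, with 3 exons and 437 bases, took 18 of 18 and 23 of 24 reads of Snhg3. Snhg8-201, with 3 exons and 448 bases, took 14 of 14 and 42 of 46 reads of Snhg8. Snhg6-203, with 4 exons and 473 bases, took 6 of 10 and 9 of 13 reads of Snhg6. Snhg1 and Snhg12 had too few reads to rank chains: none of the 5 chains of Snhg1 was seen in both libraries.

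Snhg5 stood apart, since annotated transcripts took 1 of its 6 reads and 1 of its 17. New combinations of annotated splice sites took 5 and 11 by the authors' classes. The chain with most reads had 4 exons and 612 bases (1 and 6 reads), and another with 3 exons and 874 bases had 2 reads in each library. The last chain was classed as a new combination in replicate 1 and as incomplete in replicate 2, so it is in the 5 and not in the 11. The annotation lists 10 transcripts for this gene. Over all hosts together, annotated transcripts took 86.1% and 82.6% of the reads, against 69.5% and 67.6% over all annotated genes.

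**Figure D5:**
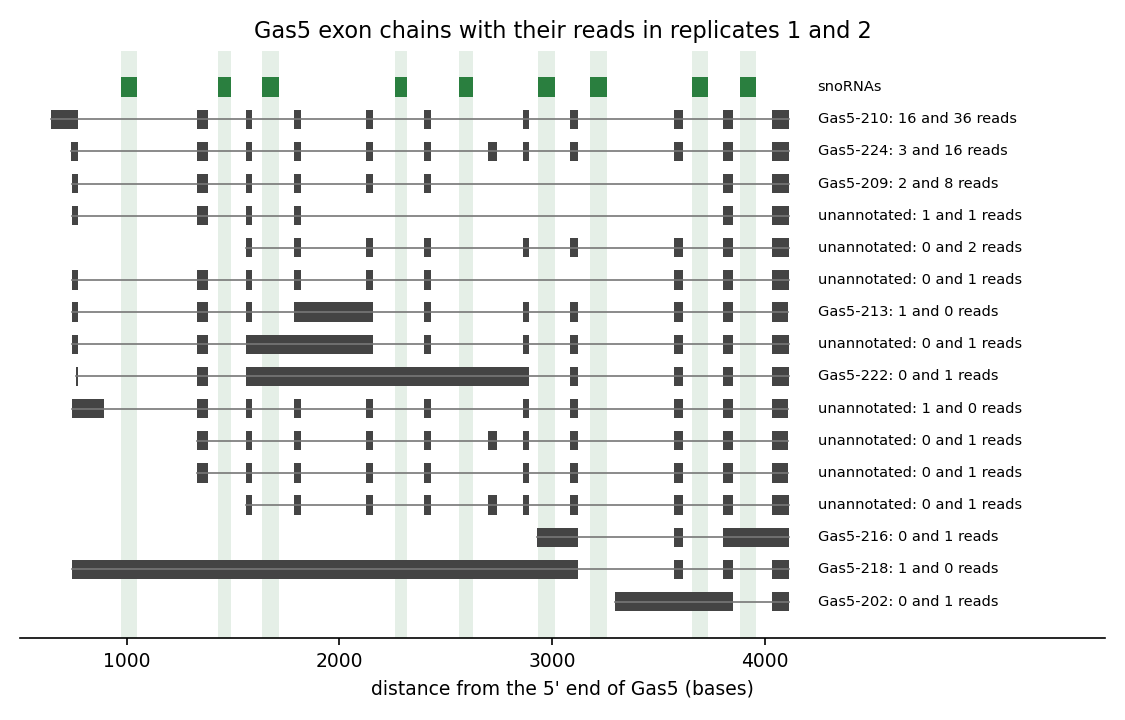
Exon chains of Gas5 by distance in bases from the 5′ end of the gene, sorted by reads, with reads in replicates 1 and 2; blocks are exons as listed in the models and shaded columns the 9 annotated snoRNAs. Only 1 of 25 and 4 of 71 reads lie in chains that keep a whole snoRNA, and wide blocks mark the models that keep introns.

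The introns that hold the snoRNAs were removed in nearly all reads that span them. The hosts hold 29 annotated snoRNAs (entries that overlap counted once): 9 in Gas5, 8 in Snhg1, 4 in Snhg12, 2 each in Snhg3, Snhg5 and Snhg11 and 1 each in Snhg6 and Snhg8. In 27 of them at least 1 read of the host spanned the snoRNA in each library. Counting each read once per snoRNA, the whole snoRNA was kept in 7 of 324 cases in replicate 1 (2.16%, Wilson 1.05 to 4.39) and in 12 of 774 in replicate 2 (1.55%, 0.889 to 2.69). Cases from a read that spans several snoRNAs are not independent, so the intervals are too narrow.

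By reads, 2 of 79 and 9 of 178 held at least 1 whole snoRNA. Gas5 supplied 1 of 25 and 4 of 71, among them a read of Gas5-218 in replicate 1 whose first exon, as listed, covers 6 snoRNAs. Snhg8 supplied 0 of 14 and 4 of 46 reads that kept Snora24 (8.70% in replicate 2, Wilson 3.43 to 20.3), 3 of them in the annotated single-exon Snhg8-202. Snhg12 supplied 1 of 1 and 1 of 6, both with Snora16a in the annotated Snhg12-210.

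In Snhg3, 0 of 18 and 0 of 24 reads kept a snoRNA, and in Snhg5 0 of 6 and 0 of 17. The same held for Snhg6, with 0 of 10 and 0 of 13, and for Snhg1, with 0 of 5 and 0 of 1. A count of 0 in 24 reads allows a share of up to 13.8% by the Wilson interval. None of the 29 snoRNAs had reads of its own in either library, while other snoRNA genes (15 in replicate 1 and 16 in replicate 2) had 72 and 165 reads.

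Genes of related function were set beside the members by the same test, as counts and medians. The lists were chosen with results of these data known. The other non-coding snoRNA hosts list had 7 tested genes, 0 called (1 with an unadjusted p under 0.05 in the exact binomial test) and a median log2 ratio of 0.25. Its highest gene, Ptov1 (160.2 and 113.5 CPM), is a protein-coding gene, as is Cwf19l1, so the list is not purely non-coding. Snhg9, the host of a box H/ACA snoRNA, had 26.1 and 31.3 CPM.

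Hosts that code for proteins had 35 tested genes with a median of 0.18. Rps12, a ribosomal protein gene, was higher in replicate 2 (log2 ratio 1.08, adjusted p = 0.0393, exact binomial test). Eif4g2, a translation factor, was higher in replicate 1 (−1.33), as was Wdr43 (−1.53), a factor of ribosome assembly.

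Of the 12 tested snoRNP and maturation proteins, Nop10, a core protein of box H/ACA particles, was higher in replicate 2 (105.2 and 241.6 CPM, log2 ratio 1.20), and 0 were higher in replicate 1. Of 16 paraspeckle proteins, Tardbp (−1.24) and Rbm3 (−1.16), both RNA-binding proteins, were higher in replicate 1, with a list median of −0.29. With TMM scaling both fell just under 2-fold (−0.99 and −0.90) and Nudt21, a factor of RNA end processing, was called higher in replicate 2 (1.82). Hnrnpk, with the highest mean level of that list, had a log2 ratio of −0.49 and was not called.

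In 16 nuclear speckle and splicing genes, Sf3b1, a core splicing factor, was higher in replicate 1 (−1.76). Of 12 factors of nonsense-mediated decay, the pathway that removes RNAs with early stop codons, Upf1 (−1.32) and Upf3a (−1.14) were higher in replicate 1. Both were lost with TMM scaling (−1.06 and −0.89, adjusted p = 0.127 and 0.161, exact binomial test), and Upf3a also without genomic models (−1.02). Of 12 genes of nuclear RNA surveillance and end processing, Zc3h18 was higher in replicate 1 (−1.63), but not with TMM scaling (−1.37, adjusted p = 0.104, exact binomial test). Of 7 tested other long non-coding RNAs, 2900097C17Rik was higher in replicate 1 (−1.18), again not with TMM scaling (−0.92), while H19, an imprinted RNA, had 551.9 and 384.3 CPM with a log2 ratio of −0.52 and was not called. In all, 2 genes of these lists passed on the side of replicate 2 and 9 on that of replicate 1, beside a background in which 5.53% and 12.0% of genes were called. With TMM scaling the balance turned, to 5 and 3, and without genomic models it was 5 and 11.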

How the data were processed

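The authors deposited, for each library, a table of raw read counts per transcript model and the models' annotation. Reads were aligned to mm10 and assigned with GENCODE M21, per the notes deposited with each sample, and the deposited annotation names TALON. The aligner is not given in the sources used here. Lengths and exon numbers per model are other deposited values. Spike-in models (40775 and 36684 reads) were left out. Counts were summed per gene and scaled to CPM. Libraries were compared with a two-sided exact binomial test (the smaller tail doubled, at least 10 reads in sum, 0.5 reads added for log2 ratios) and Fisher's exact test on spliced reads (at least 10 in each library), with Benjamini-Hochberg adjustment over all genes (Python 3.11.15, scipy 1.17.1; edgeR 4.0.16 for TMM and DESeq2 1.42.0 for size factors as alternatives, in R 4.3.3). With a single library on each side, edgeR's quasi-likelihood test has no residual degree of freedom. Both tests were tested on simulated data with counting error only. Changes were planted only in genes with more reads than any member but Neat1. The simulation therefore does not show how the tests behave at lower depth or with variation between animals. Members and lists were chosen with earlier results of these data known; the rule named all members and, per list, the 3 tested genes with the highest mean CPM and up to 5 called ones by size of ratio, from which the text gives the called genes of the related lists and examples. Reads without molecular identifiers are not independent molecules, so intervals cover counting error only. Coverage of Neat1 and Malat1 in bins was not computed, because reads of annotated models carry no positions in the files. Gas5 overlaps Zbtb37, Snhg3 overlaps Rcc1 and Snhg6 overlaps Mcmdc2; such reads were split by the authors' models.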

Additional observations from a re-analysis of the deposited data

Results flagged for a closer look

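Reads outside the members' own rows stood above the 3 reads that a count of 0 allows in both libraries at 2 loci. At Snhg1, opposite-strand reads passed that level in replicate 2 only (1 and 4 reads). There is no control sample. The short RNA Gm28006 inside Neat1 had 150 reads in replicate 1 and 52 in replicate 2. Opposite-strand reads numbered 31 and 298 at Malat1 and 149 and 503 at Neat1. Over all antisense loci of the libraries they numbered 25303 and 86704. Counting Gm28006 and the other nested RNAs as Neat1 moved its log2 ratio from 1.75 to 0.51 and ended its call. Whether the opposite-strand reads bear on the members' counts was not tested.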

How the results depend on the processing

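The count of 3 called members was kept under TMM, DESeq2 size factors, the total of all mouse reads, no filter, at least 50 reads in sum, the 3 choices of models left out and another two-sided exact p (added after seeing the data, 1555 in place of 1458 genes called). With the length trend removed it was 1: Gas5 (0.33) and Snhg8 (0.45) were lost, Snhg3 moved to −0.84, Snhg6 to −0.85 and Malat1 to 0.53, and 708 genes were called in all. The cause was not tested. Neat1 kept its call (1.91), but its trend was taken at the annotated 20771 bases, rank 2 by length of 6722 annotated models. How much of that length its reads cover is unknown, as for Malat1, so this setting cannot check either gene. With nested short RNAs counted it was 2, since Neat1 fell under 2-fold (0.51). The hosts' mean spliced share moved from 95.9% to 99.1% without models under 200 bases, because short single-exon models then drop out. Leaving out each library in turn, the summed level ran from 197.8 to 463.6 CPM, the hosts' spliced share from 94.4% to 97.5% and the share of snoRNA introns kept from 1.55% to 2.16%; no test between libraries can then be had. Calls in the related lists were 11 (2 higher in replicate 2, 9 in replicate 1), with 8 under TMM (5 and 3) and 16 without genomic models (5 and 11). No paired analysis was possible because the 2 libraries form a single group and a replicate number has no partner. Hosts with under 20 reads allow only wide intervals.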
